A study of Mus musculus with 6 samples.

Results

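Levels of ribosome-bound mRNA are described for 10 mouse genes that receive, shape or report glucocorticoid and thyroid hormone signals, pulled down with ribosomes tagged through Gli1CreERT2 in the adult dentate gyrus of mice with and without a floxed Klf9 gene. The study aimed at Gli1+ stem cells of radial glial type (RGLs). The genes were taken by name: the glucocorticoid receptor Nr3c1, the mineralocorticoid receptor Nr3c2, the thyroid hormone receptors Thra and Thrb, the hormone-activating enzymes Hsd11b1 and Dio2, and the response genes Fkbp5, Sgk1, Tsc22d3 and Hif3a. All 10 were found by symbol among the 37620 counted genes, and all 10 were among the 15056 genes that exceeded 1 CPM (reads on the gene scaled to library size) in at least 1 sample and were tested.

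Both hormones act through nuclear receptors. Corticosterone, the main glucocorticoid of the mouse, enters the cell, releases its receptor from a heat shock protein complex and sends it to palindromic DNA elements, where it switches on feedback genes such as Fkbp5. Thyroid hormone receptors sit on DNA with a retinoid X receptor partner, hold corepressors in the absence of hormone and exchange them for coactivators once triiodothyronine binds. In the brain the active forms of both hormones are also made locally, by Hsd11b1 from inert 11-keto steroid and by Dio2 from thyroxine. Klf9, a zinc finger transcription factor, is known as a target of both hormones, and the comparison asks how mRNAs of the same hormone systems stood when Klf9 was floxed.

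Every mouse carried Gli1CreERT2, which places a tamoxifen-dependent Cre under the Gli1 gene, and 1 floxed allele of Rpl22HA, the RiboTag gene whose recombination adds an HA tag to a ribosomal protein. The groups differed in Klf9, which was wild type in the 3 Klf9 +/+ samples and homozygously floxed in the 3 Klf9 f/f samples. Mice of 2 to 3 months received 3 tamoxifen injections of 250 mg/kg, 12 h apart, and tissue was taken 4 days after the last one. Each sample pooled 6 dentate gyri from 3 mice, so the spread between samples is a spread between pools, and the sex of the pooled mice is not in the labels. Cre acts in any Gli1-expressing cell that tamoxifen reaches, astrocytes included, and tagged ribosomes were pulled down from homogenate of the whole dentate gyrus. By the sample names, replicates 1 and 2 belong to library series YTa22 and replicate 3 to YTa32 in either genotype.

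Reads on genes numbered 52188635 to 66343759 per sample in YTa22, and 21594714 and 27594529 in the YTa32 samples. Depth thus differed by library series, and its part in the series differences below was not tested. Klf9 itself (ENSMUSG00000033863; mm9 chr19:23215716-23241401, plus strand) measured 201, 204 and 139 CPM in the 3 Klf9 +/+ samples, replicates 1 to 3, and 114, 121 and 120.0 CPM in those of Klf9 f/f. The genotypes did not overlap, and Klf9 was lower in Klf9 f/f by a log2 fold change of -0.59 (SE 0.15, unadjusted p = 0.00319 and Benjamini-Hochberg adjusted p = 0.844 by the quasi-likelihood test of edgeR). The difference of mean log2 CPM was -0.78 within YTa22 and -0.21 within YTa32. The 12 radial glia markers listed were all measured, at a summed 3224 to 5095 CPM, while the 14 astrocyte markers summed to 14969 to 22092 CPM. Markers of some other cell types were called by genotype. Lower in Klf9 f/f, against 2.5% of all genes, were 18 of 20 choroid plexus, 4 of 17 endothelial and 7 of 13 mural markers. So were 3 of 9 ependymal, 5 of 5 tested blood, 1 of 15 meningeal and 1 of 14 oligodendrocyte markers. Higher were 7 of 14 astrocyte and 2 of 14 oligodendrocyte markers, against 1.82%. Of the radial glia, microglia and granule neuron markers, 0 of 12, 0 of 12 and 0 of 11 were called in either direction. Choroid plexus markers summed to 595.6 to 4561 CPM in Klf9 +/+, with the top value in replicate 3, and to 329.8 to 1003 CPM in Klf9 f/f. Y-linked genes summed to 0.0653 and 0.0445 CPM in the YTa32 samples against 20.9 to 162 CPM in the YTa22 samples. Library series and the near absence of Y-linked mRNA thus cannot be told apart. Within YTa22 the sum also varied, at 20.9 and 59.4 CPM in Klf9 +/+ and 162 and 60.8 CPM in Klf9 f/f. The sex markers also moved with genotype: 2 of 4 Y-linked genes were called higher in Klf9 f/f, and Xist stood at 61.3, 21.7 and 92.6 CPM in Klf9 +/+ and 0, 20.8 and 53.5 CPM in Klf9 f/f. Their part in the results was not tested.

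Of the 10 genes, 1 was called by genotype, by unadjusted p only. A gene was called at a change of at least 1.2-fold with an unadjusted p under 0.05 in edgeR's quasi-likelihood test, with the library series as a term beside the genotype. Dio2 was called higher in Klf9 f/f, against 1.82% of all genes tested, and 0 of the 10 were called lower, against 2.5%. No gene of the 10 passed an adjusted p under 0.05, nor did any of the 15056 (0%). Unadjusted p under 0.05 was reached by 650 genes, where 5% of the genes tested would be 752.8. DESeq2 gave 39 genes with an adjusted p under 0.05 and 0 of the 10. The median log2 fold change was 0.12 over the 10 genes and 8.4e-04 over all genes tested, with 6 of the 10 above 0 and 4 below.

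Palindromic receptor elements near the start sites are shown first, because Sgk1 and Fkbp5, the genes that hold them, serve as standard readouts of the glucocorticoid receptor. The element was searched as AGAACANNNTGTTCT, which reads the same on both strands, within 10 kb of every annotated transcript start in the mm9 build. It was found near 2 of the 9 genes searched, over 52 transcript starts. The shares were 0.614% of 21821 genes, over 68708 starts, and 0.69% of the tested ones. The 9 genes had more starts per gene than the 21821. Nr3c1 was not searched. The lines give the strand of the gene, plus for Sgk1 and minus for Fkbp5, 5′ to 3′ with 7 bases on either side, and capitals mark the 15 bases of the element.
Sgk1 chr10:21713507-21713521: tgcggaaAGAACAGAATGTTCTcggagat
Fkbp5 chr17:28579364-28579378: ttgtttgAGAACAGCTTGTTCTaggcttt
Fkbp5 chr17:28557266-28557280: cacattcAGAACAGGGTGTTCTgtgctct

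The Sgk1 element lay at -189 from the nearest transcript start, the first Fkbp5 element at -711 and the second at 8294 downstream of a start, counted along the gene. Each element lay between the annotated ends of its gene, so these starts are internal ones. The 5′ end of Fkbp5 is at 28654469. In RefSeq's promoters of GRCm38.p6, each 300 bases long, the Sgk1 element was also present at -189, in 1 of its 6 promoters. The Fkbp5 promoter held 0, and only 3 of 32851 promoters hold the element. A thyroid hormone element searched on both strands as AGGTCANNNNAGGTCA was near 0 of the 9 genes and near 1.24% of all genes searched. The GC box GGGCGG, a motif of the Krüppel-like and Sp factors, was also searched on both strands. It stood 4 times in the Fkbp5 promoter and 3 times in that of Nr3c2, in 2 of 6 Sgk1, 1 of 2 Thrb and 2 of 3 Tsc22d3 promoters, and in 35.7% of all promoters, while the single promoters of Dio2, Hif3a, Hsd11b1 and Klf9 did not hold these letters. A match is a string of letters and not a measured binding site.

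The levels of the 10 genes spanned a wide range once divided by exon length. Tsc22d3 was the most abundant, with a median over the 6 samples of 51.9 CPM per kb of exon and a range of 42.4 to 74.0. Thra (median 27.1, range 19.3 to 48.7) and Hsd11b1 (median 30.4, range 17.9 to 37.4) followed. Thra and Hsd11b1 did not differ beyond their spread, since Thra was the higher of them in 2 of 6 samples. Nr3c1 had a median of 15.5 (range 11.9 to 18.8), Sgk1 of 12.4 (range 9.48 to 29.9), Fkbp5 of 8.06 (range 6.00 to 11.6) and Dio2 of 6.62 (range 5.09 to 9.09 CPM per kb). The mineralocorticoid receptor Nr3c2 stood at a median of 4.46 CPM per kb, between 3.61 and 5.31. Thrb (median 1.13, range 0.891 to 1.83) and Hif3a (median 0.637, range 0.560 to 1.01) were the least abundant. Nr3c2 and Thrb were the only neighbors in this order whose ranges did not overlap, and each gene exceeded the next in 6 of 6 samples for 5 of the 9 neighboring pairs.

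**Figure D1:**
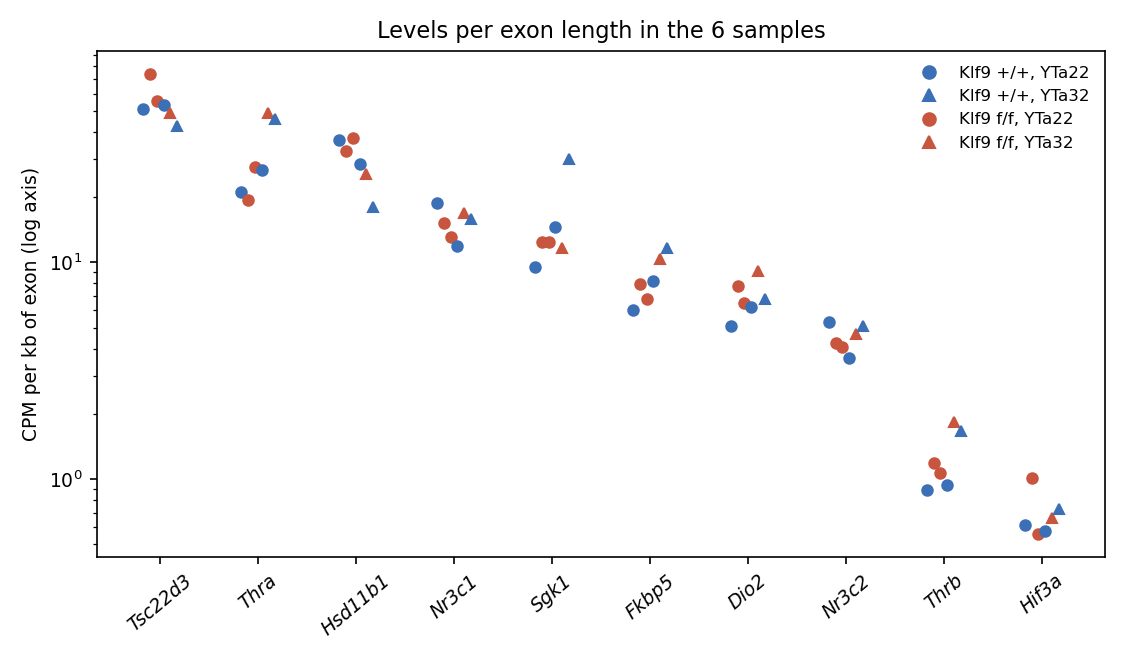
Level of each gene in CPM per kb of exon on a log axis, 1 point per sample, with genes ordered by their mean over the 6 samples. Circles are YTa22 and triangles YTa32, blue is Klf9 +/+ and red Klf9 f/f. Tsc22d3 lies between 42.4 and 74.0 and Hif3a between 0.560 and 1.01.

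Neither receptor of corticosterone passed the genotype test. Nr3c1 (ENSMUSG00000024431; chr18:39570199-39650955, minus strand), the low-affinity receptor that responds to stress levels of hormone, measured 139.6, 88.1 and 117 CPM in Klf9 +/+ replicates 1 to 3 and 113, 96.6 and 125 CPM in Klf9 f/f. The Klf9 +/+ samples held both the highest and the lowest value, so the groups overlapped throughout. Its log2 fold change was -0.051 (SE 0.18, unadjusted p = 0.785 by edgeR). With the mean level of the choroid plexus markers as a covariate it was -0.68 (SE 0.29, unadjusted p = 0.0510 by edgeR). Within the series the difference of mean log2 CPM was -0.087 in YTa22 and 0.089 in YTa32.

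Nr3c2 (ENSMUSG00000031618; chr8:79423341-79768911, plus strand) encodes the high-affinity receptor that is occupied at basal hormone levels and is known for its abundance in the hippocampus. It measured 34.4, 23.4 and 32.9 CPM in Klf9 +/+ and 27.5, 26.2 and 30.3 CPM in Klf9 f/f. The Klf9 f/f values sat inside the Klf9 +/+ range. The log2 fold change was -0.11 (SE 0.17, unadjusted p = 0.526 by edgeR), with within-series differences of mean log2 CPM of -0.078 in YTa22 and -0.12 in YTa32. With the choroid plexus covariate the log2 fold change of Nr3c2 was -0.61 (SE 0.30, unadjusted p = 0.0783 by edgeR). Of its exon bases 3.82% overlap Gm10649, a noncoding gene on the opposite strand, and the counting ignored strand.

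Both thyroid hormone receptors were higher in series YTa32, and neither passed the genotype test. Thra (ENSMUSG00000058756; chr11:98601952-98630320, plus strand), the predominant receptor gene of the brain, measured 97.4, 123 and 211 CPM in Klf9 +/+ and 89.1, 127 and 225 CPM in Klf9 f/f. Replicate 3 was the highest in each genotype, and the genotypes overlapped. Its genotype log2 fold change was 0.013 (SE 0.17, unadjusted p = 0.939 by edgeR), from -0.040 within YTa22 and 0.094 within YTa32. Series YTa32 exceeded YTa22 by 1.99-fold (log2 0.99, SE 0.17, adjusted p = 0.00568 by edgeR's quasi-likelihood test). The end of Thra overlaps Nr1d1 on the opposite strand over 5.70% of its exon bases. Reads that fall on more than 1 gene are ambiguous in the counting and are not in the Thra count.

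Thrb (ENSMUSG00000021779; chr14:18493474-18870602, plus strand) encodes the second thyroid hormone receptor. It measured 5.90, 6.19 and 11.0 CPM in Klf9 +/+ and 7.83, 7.08 and 12.1 CPM in Klf9 f/f. In each series every Klf9 f/f sample was above every Klf9 +/+ sample, although across series the genotypes overlapped. The log2 fold change was 0.25 (SE 0.18) and missed the threshold (unadjusted p = 0.208 by edgeR), with 0.30 within YTa22 and 0.14 within YTa32. YTa32 exceeded YTa22 by 1.72-fold (log2 0.78, SE 0.19, adjusted p = 0.0160 by edgeR).

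**Figure D2:**
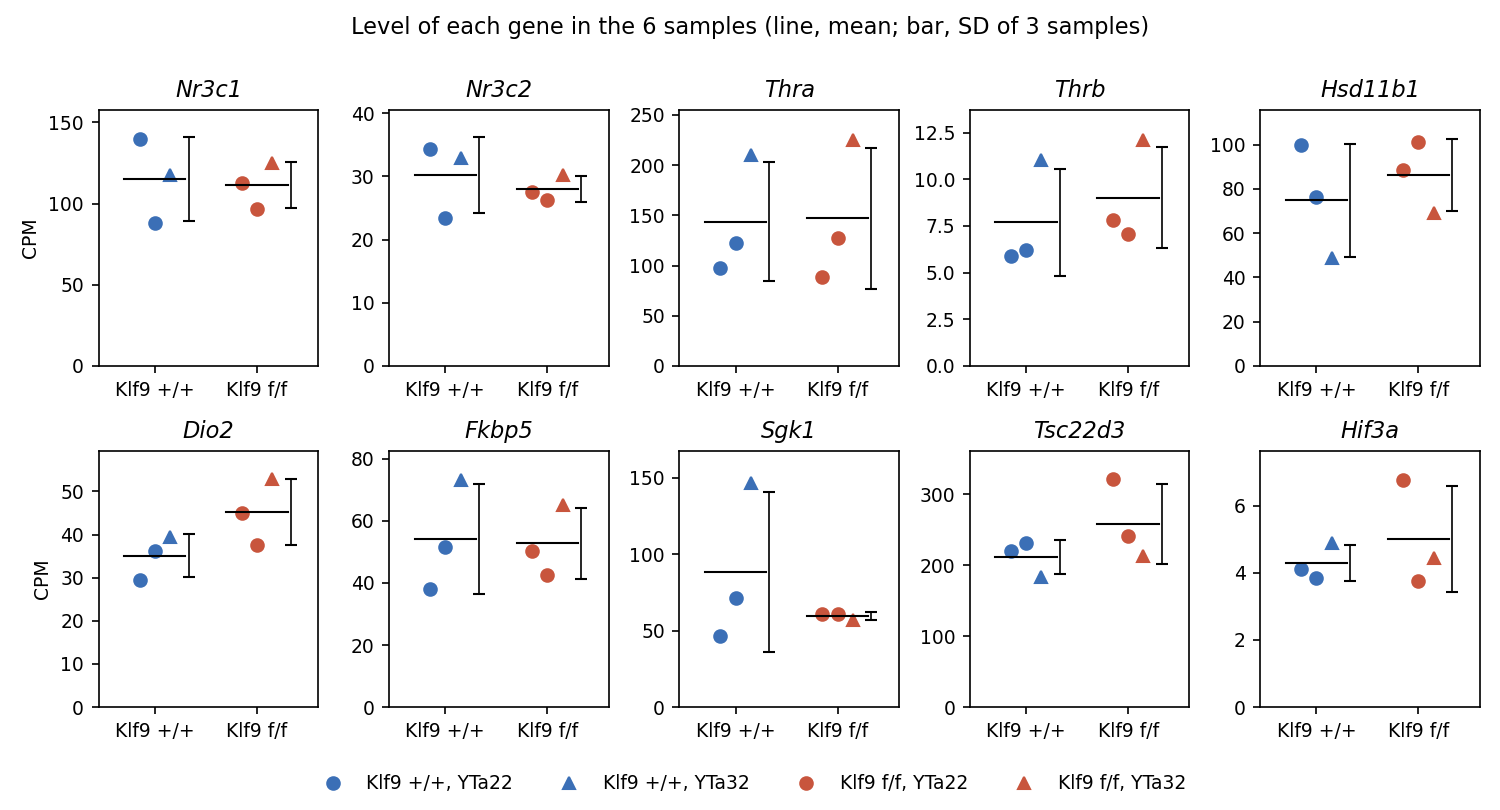
CPM after TMM scaling of each of the 10 genes in the 6 samples, with a linear axis from 0 for each gene. Circles are YTa22 and triangles YTa32, horizontal lines are group means and bars the SD of 3 samples. Thra and Thrb triangles lie above all circles, and Sgk1 has 1 high point at 147 CPM in Klf9 +/+.

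Of the enzymes that make active hormone inside the brain, Dio2 was called higher in Klf9 f/f by unadjusted p only, and Hsd11b1 did not pass the test. Dio2 (ENSMUSG00000007682; chr12:91962994-91976878, minus strand), the deiodinase that turns thyroxine into triiodothyronine and is known chiefly from astrocytes and tanycytes, measured 29.6, 36.2 and 39.3 CPM in Klf9 +/+ and 45.1, 37.6 and 52.9 CPM in Klf9 f/f. Means were 35.1 ± 4.99 and 45.2 ± 7.63 CPM (SD, n = 3 pools each). Klf9 f/f replicate 2 lay below Klf9 +/+ replicate 3, so the groups overlapped, but in each series every Klf9 f/f sample was above every Klf9 +/+ sample. Dio2 rose 1.28-fold (log2 0.36, SE 0.14, unadjusted p = 0.0325 and adjusted p = 1.00 by edgeR's quasi-likelihood test), with differences of mean log2 CPM of 0.33 in YTa22 and 0.43 in YTa32. An exact two-sided permutation test over the 6 samples gave p = 0.2, where the smallest possible value is 0.1. Noncoding gene Gm16738 shares 1.72% of the Dio2 exon bases on the opposite strand.

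The Dio2 call rested on the series term and on single pools. By edgeR's unadjusted p in fits across all genes, not an exact test over samples, it was lost without the library series term (p = 0.104), without Klf9 +/+ replicate 1 (p = 0.105) or 3 (p = 0.150), without Klf9 f/f replicate 1 (p = 0.0929) or 3 (p = 0.150), and in YTa22 alone (p = 0.149). The call held without replicate 2 of either genotype (unadjusted p = 0.0202 for Klf9 +/+ and 0.0228 for Klf9 f/f by edgeR). The log2 fold change of Dio2 stayed between 0.29 and 0.69 under every alternative run. Astrocyte markers were at a summed 14969 to 18920 CPM in Klf9 +/+ and 19000 to 22092 CPM in Klf9 f/f, and with their mean level as a covariate Dio2 had a log2 fold change of 0.32 (unadjusted p = 0.190 by edgeR). With the vascular and meningeal level it had 0.38 (unadjusted p = 0.0722 by edgeR). With the choroid plexus level it had 0.69, and the call held (unadjusted p = 0.0480 by edgeR). More cells of a type and more mRNA per cell cannot be told apart in pooled tissue, for this or any gene here.

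Dio3 and Slco1c1, which also handle thyroid hormone, were not called. Dio3, which inactivates the hormone, stood at 0.191 to 1.05 CPM and exceeded the 1 CPM filter in a single sample, Klf9 f/f replicate 1. Slco1c1, the thyroxine transporter OATP1C1, measured 51.4 to 87.5 CPM in Klf9 +/+ and 39.8 to 88.8 CPM in Klf9 f/f, with a log2 fold change of -0.17 (SE 0.29). Both were named for their role after their values had been seen.

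Hsd11b1 (ENSMUSG00000016194; chr1:195047824-195090248, minus strand), the reductase that regenerates corticosterone, measured 99.6, 76.5 and 48.6 CPM in Klf9 +/+ and 88.4, 101 and 68.9 CPM in Klf9 f/f. The genotypes overlapped, with the lowest value of each genotype in replicate 3. Between genotypes the log2 fold change was 0.24 (SE 0.16, unadjusted p = 0.163 by edgeR), with differences of mean log2 CPM of 0.12 in YTa22 and 0.51 in YTa32. Without Klf9 +/+ replicate 1 it was 0.39 and passed the call threshold (unadjusted p = 0.0295 by edgeR), whereas it was 0.10 without Klf9 +/+ replicate 3 and 0.11 without Klf9 f/f replicate 3. YTa32 was lower than YTa22, at 0.635 of its level (log2 -0.66, SE 0.17, adjusted p = 0.0214 by edgeR). Hsd11b2, which inactivates corticosterone, stood at 0.752 to 1.78 CPM, and H6pd, which supplies the reductase with its cofactor, at 3.14 to 8.40 CPM. Both were named after their values had been seen.

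Among the response genes, 0 of 4 passed the genotype test. Fkbp5 (ENSMUSG00000024222; chr17:28536040-28654469, minus strand), a cochaperone that lowers the affinity of the glucocorticoid receptor for hormone, measured 37.9, 51.5 and 73.3 CPM in Klf9 +/+ and 50.3, 42.7 and 65.2 CPM in Klf9 f/f. The genotypes overlapped, and replicate 3 was highest in both. Its log2 fold change by genotype was -0.018 (SE 0.16, unadjusted p = 0.910 by edgeR), with 0.068 within YTa22 and -0.17 within YTa32. Between the series Fkbp5 was 1.52-fold higher in YTa32 (log2 0.60, SE 0.16, adjusted p = 0.0245 by edgeR).

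Sgk1 (ENSMUSG00000019970; chr10:21601990-21719709, plus strand), a kinase that controls ion channels and is induced by both corticosteroid receptors, measured 46.5, 71.5 and 147 CPM in Klf9 +/+ and 60.8, 61.1 and 56.8 CPM in Klf9 f/f. The Klf9 f/f samples were close together, within the range of the Klf9 +/+ samples, and Klf9 +/+ replicate 3 stood above all the others. The log2 fold change was -0.41 (SE 0.28, unadjusted p = 0.176 by edgeR), made up of 0.080 in YTa22 and -1.37 in YTa32 as differences of mean log2 CPM. Without Klf9 +/+ replicate 3 the fitted log2 fold change was 0.041 (SE 0.23), and without Klf9 +/+ replicate 1, the lowest sample, it was -0.73 and Sgk1 was called lower (unadjusted p = 0.0170 by edgeR). Klf9 +/+ replicate 3 also had the highest choroid plexus marker sum, 4561 CPM, and with the choroid plexus level as a covariate the log2 fold change was 0.77 (SE 0.49, unadjusted p = 0.161 by edgeR). The fitted interaction of genotype and series for Sgk1 was -1.42 on the log2 scale (SE 0.41, unadjusted p = 0.00548 and adjusted p = 1.00 by edgeR). It rests on 1 sample of each genotype in YTa32, whose spread is assumed to be that of YTa22.

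Tsc22d3 (ENSMUSG00000031431; chrX:137074067-137135198, minus strand), which encodes the glucocorticoid-induced leucine zipper GILZ, measured 219.9, 231 and 184 CPM in Klf9 +/+ and 321, 240.4 and 212 CPM in Klf9 f/f. Klf9 f/f was above Klf9 +/+ in each series, with differences of mean log2 CPM of 0.30 and 0.21, and the genotypes overlapped across series. The 1.22-fold difference (log2 0.28, SE 0.15) missed the threshold (unadjusted p = 0.0864 by edgeR). An exact two-sided permutation test over the samples gave p = 0.3. Tsc22d3 was called higher only without Klf9 f/f replicate 2 (unadjusted p = 0.0355) and with the vascular and meningeal level as a covariate (unadjusted p = 0.0288 by edgeR), among the alternatives run. Without Klf9 f/f replicate 1, its highest sample, the log2 fold change was 0.14 (unadjusted p = 0.295), and with the astrocyte covariate it was 0.11 (unadjusted p = 0.625 by edgeR).

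Hif3a (ENSMUSG00000004328; chr7:17616856-17647776, minus strand), a hypoxia-inducible factor subunit that glucocorticoids also induce, was the scarcest, with 100 to 444 reads per sample. It measured 4.10, 3.86 and 4.90 CPM in Klf9 +/+ and 6.78, 3.76 and 4.45 CPM in Klf9 f/f. Klf9 f/f replicate 1 was the highest and replicate 2 of the same genotype the lowest. Its log2 fold change was 0.23 (SE 0.28, unadjusted p = 0.431 by edgeR), with 0.34 within YTa22 and -0.14 within YTa32.

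Within both library series, Klf9 f/f was above Klf9 +/+ without overlap for 3 of the 10 genes, Thrb, Dio2 and Tsc22d3, against 7.78% of all genes tested. It was below in both for 0 of the 10, against 5.53%. Of these 3 genes, Dio2 alone was called.

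**Figure D3:**
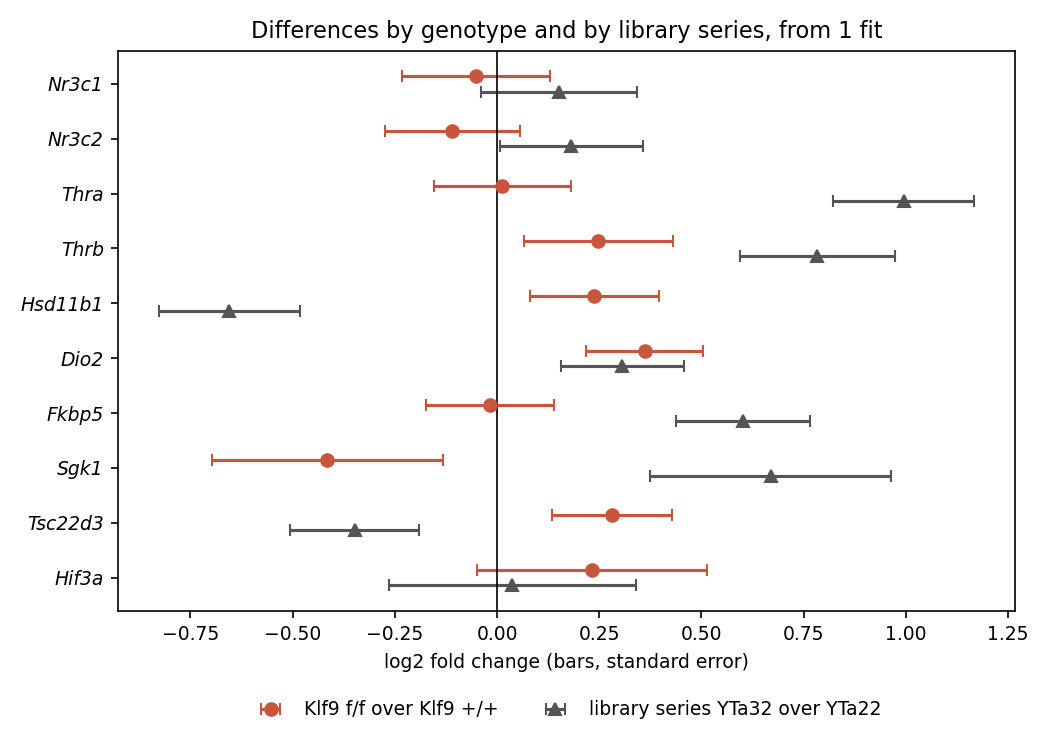
Log2 fold change of each gene for Klf9 f/f over Klf9 +/+ (red circles) and for library series YTa32 over YTa22 (gray triangles), from 1 edgeR fit, with standard errors as bars. The genotype values run from -0.41 for Sgk1 to 0.36 for Dio2, and the series values from -0.66 for Hsd11b1 to 0.99 for Thra.

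As over all genes tested, more of these genes differed between the library series than between the genotypes. At an adjusted p under 0.05 by edgeR, Thra, Thrb and Fkbp5 were higher in YTa32, against 12.9% of all genes tested, and Hsd11b1 was lower, against 16.6%. The median size of the log2 difference over the 10 genes was 0.47 for the series and 0.24 for the genotype, and over all genes tested it was 0.40 and 0.12. Without Klf9 +/+ replicate 3 or with the choroid plexus level as a covariate 0 of these 4 differences passed. Without Klf9 +/+ replicate 3 the log2 differences were 1.08 for Thra (SE 0.27), 0.73 for Thrb (SE 0.33), 0.51 for Fkbp5 (SE 0.26) and -0.43 for Hsd11b1 (SE 0.26). With the choroid plexus covariate they were 0.75 (SE 0.52), 0.53 (SE 0.57), -0.27 (SE 0.36) and 0.20 (SE 0.35) in the same order. These standard errors were wider than those of the fit as reported, so the covariate fit could not decide the differences. Without Klf9 f/f replicate 3 they were 0.94, 0.87, 0.71 and -0.86, and the only one of the 10 genes to pass was Sgk1 (log2 1.32, adjusted p = 0.0360 by edgeR). Without Klf9 f/f replicate 2, Hsd11b1 (log2 -0.64, adjusted p = 0.0532) and Fkbp5 (log2 0.57, adjusted p = 0.0620 by edgeR) missed the threshold. Ambiguous reads, those that fall on more than 1 gene, made up 2.42% to 2.64% of reads in YTa22 and 1.35% to 1.38% in YTa32, and their part in the difference was not tested.

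Other genes of the pathways were read from 7 lists, which held 99 genes, of which 94 were tested. Of these, 6 were called higher in Klf9 f/f (6.38%, against 1.82% of all genes tested) and 1 lower (1.06%, against 2.5%), and 0 had an adjusted p under 0.05 by edgeR. The median log2 fold change over the 94 was 0.011. All 6 higher genes were glucocorticoid target genes, a list of 29 genes tested with a median log2 fold change of 0.085, in which 0 were called lower. These 6 of 29 also stand against 1.82% of all genes called higher, and the lists were chosen with results of these data known.

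Arrdc2, an arrestin-domain protein, measured 16.6, 23.1 and 14.8 CPM in Klf9 +/+ and 25.1, 30.0 and 27.3 CPM in Klf9 f/f. The genotypes did not overlap, and Arrdc2 rose 1.52-fold (log2 0.60, SE 0.18, unadjusted p = 0.00846 by edgeR). Pdk4, the kinase that shuts off pyruvate dehydrogenase, rose by a log2 fold change of 0.50 (SE 0.15), from 11.3, 12.6 and 16.1 CPM to 18.1, 15.4 and 23.2 CPM, with an overlap across series but none within either. Gpd1, the cytosolic glycerol phosphate dehydrogenase, rose by 0.42 (SE 0.13), from 655 to 939 CPM in Klf9 +/+ to 927 to 1209 CPM in Klf9 f/f.

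Ndrg2, a stress-responsive gene that was also on the astrocyte list, measured 2591, 2179 and 2034 CPM in Klf9 +/+ and 3323, 2958 and 2837 CPM in Klf9 f/f, which did not overlap, and rose by a log2 fold change of 0.42 (SE 0.15). Klf15, another Krüppel-like factor, rose by 0.30 (SE 0.12), from 74.8 to 91.8 CPM in Klf9 +/+ to 87.7 to 111 CPM in Klf9 f/f. Ddit4, an inhibitor of the mTOR kinase, rose by 0.30 (SE 0.12). It stood at 36.4 to 89.6 CPM in Klf9 +/+ and 43.7 to 105 CPM in Klf9 f/f, and was 2.36-fold higher in YTa32 (adjusted p = 0.00217 by edgeR). Mt1, a metallothionein and one of the 2 most abundant genes of the list, ranged from 696 to 1981 CPM and was not called (log2 0.21, SE 0.21).

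The count of 6 depended on the samples. It was 6 by DESeq2, 0 without Klf9 +/+ replicate 3, without Klf9 f/f replicate 3 or in YTa22 alone, 1 without the library series term, 3 without Klf9 +/+ replicate 2 and 8 without Klf9 +/+ replicate 1. With the astrocyte or the choroid plexus level as a covariate 1 gene of the list was called higher. The astrocyte level is partly made of Ndrg2, Glul and Gjb6, which are also on this list, so that fit cannot decide for them. Within the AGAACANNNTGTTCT search, 0 of the 6 genes had the element within 10 kb of a start.

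**Figure D4:**
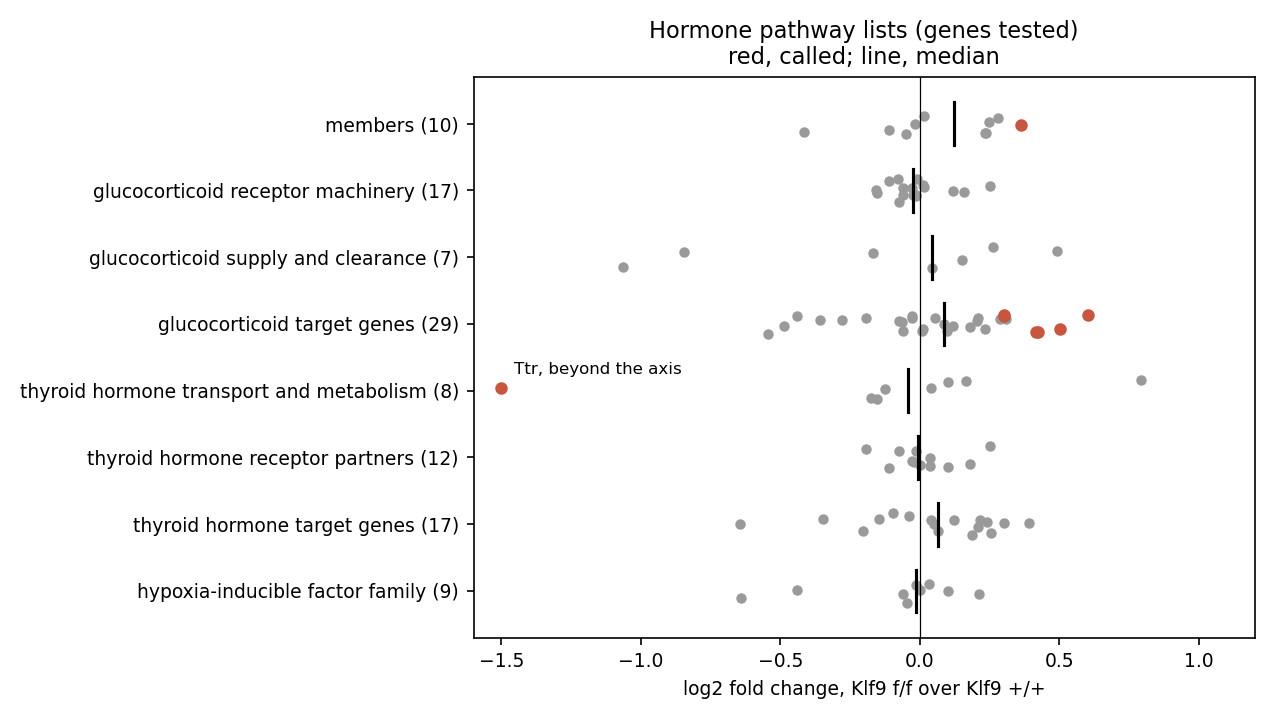
Log2 fold change of Klf9 f/f over Klf9 +/+ for each tested gene of the 10 genes and of 7 hormone pathway lists, 1 point per gene, with the number tested in parentheses, red for called genes and a black line at each median. The 6 red points of the glucocorticoid target list lie between 0.30 and 0.60, and Ttr, at -4.99, is drawn at the edge of the axis.

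The remaining lists gave 1 call in all. In the receptor machinery of glucocorticoid signaling, 0 of 17 genes were called in either direction (median log2 fold change -0.026), with Hsp90ab1, the chaperone that holds the receptor, at 1009.9 to 2126 CPM and Hspa8, which loads it, at 600.2 to 1217 CPM. In glucocorticoid supply and clearance, 0 of 7 were called, among them Srd5a1, a steroid reductase (11.6 to 16.0 CPM), and Abcb1a, the efflux pump of the blood-brain barrier (log2 -0.84, SE 0.51). Of 12 partners of the thyroid hormone receptors 0 were called, with the corepressor Ncor1 at 247.5 to 374 CPM and its deacetylase Hdac3 at 166 to 211 CPM.

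Of 17 thyroid hormone target genes 0 were called in either direction, with a median log2 fold change of 0.064. Thrsp, which promotes lipid synthesis and was also on the radial glia list, measured 499 to 1163 CPM in Klf9 +/+ and 689.8 to 1291 CPM in Klf9 f/f (log2 0.30, SE 0.18). Nrgn, the postsynaptic protein neurogranin, had a log2 fold change of -0.096 (SE 0.16). Hr, a corepressor and a classic thyroid hormone target in brain that was named after its values had been seen, had -0.039 (SE 0.22) and was 2.81-fold higher in YTa32 (adjusted p = 0.00463 by edgeR). In the hypoxia-inducible factor family, to which Hif3a belongs, 0 of 9 genes were called, and Hif1a and its ubiquitin ligase component Vhl had log2 fold changes of 0.10 (SE 0.17) and -0.013 (SE 0.13).

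Of 8 genes of thyroid hormone transport and metabolism, Ttr was called lower, while Slc7a5, an amino acid transporter that also carries thyroid hormone, was not (log2 0.10, SE 0.14). Ttr, which encodes the thyroxine carrier transthyretin and is a defining product of the choroid plexus, measured 109, 655 and 2273 CPM in Klf9 +/+ and 4.58, 7.08 and 342 CPM in Klf9 f/f. Klf9 f/f was below Klf9 +/+ in each series, and the groups overlapped only because Klf9 f/f replicate 3 exceeded Klf9 +/+ replicate 1. The log2 fold change was -4.99 (SE 0.89, unadjusted p = 3.19e-04 and adjusted p = 0.343 by edgeR's quasi-likelihood test). It moved with the choroid plexus markers, a list of 20 that includes Ttr, all of which had a negative log2 fold change. The part of these markers in the result was not tested.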

How the data were processed

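Ribosome-bound mRNA of 6 samples, 3 Klf9 +/+ and 3 Klf9 f/f, was analyzed from deposited counts. The authors built libraries with a SMARTer kit, mapped 50 bp reads with STAR to mm9 and deposited unnormalized whole-number counts per gene from HTSeq 0.6.0, without regard to strand. STAR, HTSeq and mm9 are also in the submitters' processing notes. Groups came from the genotype labels. Symbols, exon lengths and coordinates came from GENCODE M1 (mm9), which named 37205 of 37620 genes. The 5 summary lines of HTSeq held 16.4% to 19.1% of reads in YTa22 and 25.9% and 26.6% in YTa32, and were left out.

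The quasi-likelihood test of edgeR 4.0.16 (glmQLFTest, R 4.3.3) was run after TMM scaling on genes that exceeded 1 CPM in 1 sample or more, with genotype and library series as terms, 3 residual degrees of freedom and a biological variation coefficient of 0.198. P-values were adjusted over all 15056 genes. Log2 CPM used a prior count of 2. Replicates are pools numbered by accession order, so p-values measure the spread between pools. The 10 genes and all lists were chosen with earlier results of these data known. Named from each list were called genes, up to 6, and the 2 of highest mean level, and other names were chosen after values were seen. List symbols unmatched in GENCODE M1 were matched through RefSeq synonyms, and Tob2, Hbb-bs and Hbb-bt stayed unmatched. Of the listed genes, 1 is not reported here. Alternatives were no series term, a likelihood-ratio test, upper-quartile scaling, 2 other filters, each sample left out, YTa22 alone, 3 marker covariates, an adjusted p threshold and DESeq2 1.42.0. The script was tested on simulated data. Column values of the authors' own comparisons were not used here.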

Additional observations from a re-analysis of the deposited data

How the results depend on the processing

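No paired analysis was possible because the labels give no replicate number shared between the genotypes, and the numbers used here follow accession order. Over the 10 genes and 16 alternatives, 122 of 160 log2 fold changes kept their direction and their side of the threshold, 8 lost the call, 5 gained one and 25 changed sign, all 25 in genes that were not called. The marker covariates and the series difference under each alternative were chosen with the values already known. The cause of these shifts was not tested, apart from the fewer samples in fits that leave some out.

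The counts of called genes moved with the settings. Without the library series term 50 genes were higher and 163 lower, with 0 of the 10 and 1 pathway gene higher and 0 pathway genes lower. With no filter beyond 1 count they were 513 and 926, with 1 of the 10, 9 pathway genes and 2 glucocorticoid target genes lower. YTa22 alone gave 163 and 202, with 0 of the 10, 0 pathway genes and 0 glucocorticoid target genes higher and 2 pathway genes lower, and the likelihood-ratio test gave 2 pathway genes lower. Calling at an adjusted p under 0.05 in the fit as reported left 0 in each count. At that threshold DESeq2 gave 39 genes, the likelihood-ratio test 58, no filter 334, YTa22 alone 13, the vascular and meningeal covariate 67 the astrocyte covariate 24 and fits without 1 sample 0 to 15, of which 0 were among the 10. With the choroid plexus covariate 599 genes were lower, 2 pathway genes and 1 glucocorticoid target gene higher, 4 and 1 lower, and 0 of the 10 higher or lower in YTa32. With the vascular and meningeal covariate 756 genes were higher and 770 lower, 14 pathway genes higher and 5 lower, and 2 glucocorticoid target genes lower. With the astrocyte covariate 145 were higher and 660 lower, 0 of the 10, 1 pathway gene and 1 glucocorticoid target gene higher and 7 pathway genes lower.

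Leaving out 1 sample at a time gave 130 to 493 genes higher and 209 to 719 lower, 0 to 2 of the 10 higher and 0 to 1 lower, 0 to 9 pathway genes higher and 2 to 6 lower, 0 to 8 glucocorticoid target genes higher and 0 to 2 lower, and 0 to 3 of the 10 higher and 0 to 1 lower in YTa32. Such fits ran from -0.20 to 0.18 for Nr3c1, -0.26 to 0.064 for Nr3c2, -0.13 to 0.16 for Thra, 0.19 to 0.30 for Thrb, 0.10 to 0.39 for Hsd11b1, 0.29 to 0.46 for Dio2, 0.14 to 0.38 for Tsc22d3, -0.16 to 0.093 for Fkbp5, -0.73 to 0.047 for Sgk1 and -0.11 to 0.41 for Hif3a on the log2 scale.

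Changed signs in other settings were 0.22 for Nr3c1, 0.089 for Nr3c2 and -0.32 for Thra with the vascular and meningeal covariate. YTa22 alone gave -0.032 for Thra, 0.053 for Fkbp5 and 0.044 for Sgk1. The choroid plexus covariate gave -0.33 for Hsd11b1, 0.58 for Fkbp5 and 0.77 for Sgk1, and the astrocyte covariate 0.041 for Fkbp5 and -0.18 for Hif3a. Each of the 10 genes had 100 reads or more in every sample, and each genotype had 3 pools.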
